A study of Mus musculus with 19 samples.

Results

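The cells described here were the myeloid and dendritic cells that came along with thymocytes in a CITE-seq atlas of the mouse thymus, a method that counts RNA and DNA-tagged antibodies in the same droplet. They were chosen by RNA alone. A barcode was a member if it passed the RNA filters (at most 15% mitochondrial UMIs and at least 200 genes) and held at least 2 UMIs of Tyrobp, at least 1 UMI of Lyz2, Cst3 or Siglech, and 0 UMIs of Cd79a, Cd3e and Cd8b1, the genes of B cell and T cell receptor complexes and of the CD8 coreceptor. This rule found 280 members among 79569 barcodes that passed the filters, from 85389 deposited. All 17 mice contributed, with 1 to 72 members each.

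The study profiled thymi of 17 female mice aged 4 to 8 weeks in 19 lanes and 3 experiments with a panel of 111 antibodies. It compared mice in which positive selection yields CD4+ T cells with mice in which it yields CD8+ T cells. CD5+TCRB+ cells were sorted from 3 wild-type (B6) mice, 2 MHCI-/- mice (B2m-/-, CD4-fated) and 2 MHCII-/- mice (H2-Ab1-/-, CD8-fated). Thymocytes were left unsorted in 2 further wild-type mice, in 2 AND and 2 OT-II mice (CD4-fated, with a transgenic receptor for MHC class II) and in 2 F5 and 2 OT-I mice (CD8-fated, with a transgenic receptor for MHC class I). AND and F5 mice also lacked Rag1, and the F5 receptor genes were placed under CD2 control, whereas OT-I and OT-II mice kept Rag1. The thymi were dissociated mechanically, so the myeloid cells recovered were those that this step released. Each mouse was 1 replicate, and lanes of 1 mouse were summed.

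Thymic dendritic cells present self peptides to developing T cells and take part in deleting self-reactive ones and in inducing regulatory T cells. Conventional dendritic cells type 1 (cDC1) carry XCR1 and CLEC9A and cross-present antigen on MHC class I, type 2 cells (cDC2) carry SIRPa and lectins such as MGL2, plasmacytoid dendritic cells (pDC) carry Siglec-H and depend on the factor TCF4, and activated dendritic cells raise CCR7 and the chemokines CCL17 and CCL22. Thymic macrophages engulf the many thymocytes that die during selection and carry complement C1q, MERTK and TIM-4.

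The rule rests on 4 genes. Tyrobp (ENSMUSG00000030579) encodes DAP12, an adaptor that carries the signal of many activating receptors in myeloid and natural killer (NK) cells, Lyz2 (ENSMUSG00000069516) encodes lysozyme, Cst3 (ENSMUSG00000027447) encodes cystatin C, an inhibitor of cathepsins, and Siglech (ENSMUSG00000051504) encodes a sialic acid-binding receptor of pDC that pairs with DAP12. The bases just upstream of the annotated starts of Lyz2 (chr10:117282273-117282522, minus strand), Cst3 (chr2:148875513-148875762, minus strand) and Siglech (chr7:55767934-55768183, plus strand) are given from RefSeq on GRCm38.p6, since RNA from these genes picked the cells, and capitals mark a match to GAGGAA, the binding motif of the myeloid factor PU.1, searched on both strands (GAGGAA or TTCCTC). The table used here held no entry for Tyrobp.
Lyz2: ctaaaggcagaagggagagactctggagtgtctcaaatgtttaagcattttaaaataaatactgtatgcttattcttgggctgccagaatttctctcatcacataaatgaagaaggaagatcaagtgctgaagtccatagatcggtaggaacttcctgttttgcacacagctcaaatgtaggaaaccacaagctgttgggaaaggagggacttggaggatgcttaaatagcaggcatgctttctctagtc
Cst3: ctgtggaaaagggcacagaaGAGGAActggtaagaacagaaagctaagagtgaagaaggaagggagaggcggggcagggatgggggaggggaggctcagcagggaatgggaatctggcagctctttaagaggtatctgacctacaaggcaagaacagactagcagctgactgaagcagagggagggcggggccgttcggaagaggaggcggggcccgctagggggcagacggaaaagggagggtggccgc
Siglech: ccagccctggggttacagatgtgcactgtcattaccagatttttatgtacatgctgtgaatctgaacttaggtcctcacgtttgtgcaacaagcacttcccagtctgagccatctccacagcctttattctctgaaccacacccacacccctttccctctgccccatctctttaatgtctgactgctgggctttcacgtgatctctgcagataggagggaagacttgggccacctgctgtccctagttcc
Cst3 held 1 match in this window, and Lyz2 and Siglech held none. Of 32851 promoter windows of the same length, 7639 (23.3%) held a match, so a match is common.

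The members' levels of these genes are a description, since they chose the cells. Across the 9 mice with at least 10 members (WT 4, WT 5, AND 1, AND 2, F5 2, OT-I 1, OT-I 2, OT-II 1 and OT-II 2), Tyrobp ran from 868.0 to 2144 UMIs per 1000000 RNA UMIs (CPM, median 1404) in members and from 6.83 to 27.6 in the other cells of the same mice. Cst3 ran from 1401 to 17194 CPM (median 7840) and was seen in 90.7% of members. Lyz2 ran from 245.0 to 10430 CPM (median 3016) and was seen in 68.6% of members, against 1.42% of other cells. Siglech was the rarest, with a UMI in 7.86% of members and a median of 33.9 CPM, and WT 5 held the highest level at 1074 CPM. Cst3 was not particular to the members, as 41.2% of other cells held a UMI of it. Of the 280 members, 74 met the rule through Cst3 alone.

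The Tyrobp threshold cut through shallow cells. The 62 members with exactly 2 Tyrobp UMIs had a median of 1301 RNA UMIs, 13640 CPM of Cd74, the invariant chain of MHC class II, and 12384 CPM of Cst3. The 109 barcodes just outside, with 1 Tyrobp UMI and the rest of the rule met, had a median of 910 RNA UMIs, 4906 CPM of Cd74 and 7270 CPM of Cst3. The exclusion genes removed 304 of 584 barcodes that met the rest of the rule, 231 of them with a Cd3e UMI, 201 with a Cd8b1 UMI and 9 with a Cd79a UMI. Members had a median of 4317 RNA UMIs and 2206 antibody UMIs, against 4009 and 3438 in the other cells. Scores of simulated doublets called 86 members (30.7%) doublets, against 3.91% of other cells. They were kept, and the comparisons were also made without them. Whether the scores call rare cell types too often was not tested, so these shares are not doublet rates. Of the 280 members, 16 had a barcode sequence that also occurred in another lane. Over all barcodes that passed, counted as distinct sequences and not as cells, 874 of 78660 did.

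Members made up a smaller share of barcodes in the sorted than in the unsorted mice. In the 7 sorted mice the members made up 0.0211% to 0.195% of barcodes (median mouse MHCI-/- 1, 0.0454%), and in the 10 unsorted mice 0.135% to 1.24%. OT-II 1 (1.24%) and OT-I 1 (1.09%) stood highest and WT 2 (0.0211%, 1 cell) lowest, and only WT 1 among the sorted mice (0.195%) lay above an unsorted mouse, WT 5 (0.135%). The means were 0.0689% ± 0.0607 (SD, n = 7) and 0.545% ± 0.374 (SD, n = 10), and the difference of -0.476 percentage points was larger than the spread between mice (exact permutation test, two-sided, p = 0.00293). Within experiments 1 and 2, which hold all sorted mice and 4 unsorted ones, the difference was -0.302 points (exact permutation p = 0.00303). The unsorted mice there were all AND or F5 and the sorted ones all wild-type or MHC-deficient, so sort and genotype cannot be told apart. Within wild-type mice the values were 0.0856% ± 0.0953 (n = 3) and 0.271% ± 0.193 (n = 2), where the exact permutation p was 0.3 and could not fall below 0.1. Sorted and unsorted wild-type mice also differ in experiment, so sort and experiment cannot be told apart there. With no exclusion by Cd79a, Cd3e and Cd8b1, the shares over all 17 mice were 0.267% ± 0.141 and 1.09% ± 0.54, a difference of -0.825 points (exact permutation p = 0.000617), so that the size of the share depends on the exclusion genes.

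**Figure D1:**
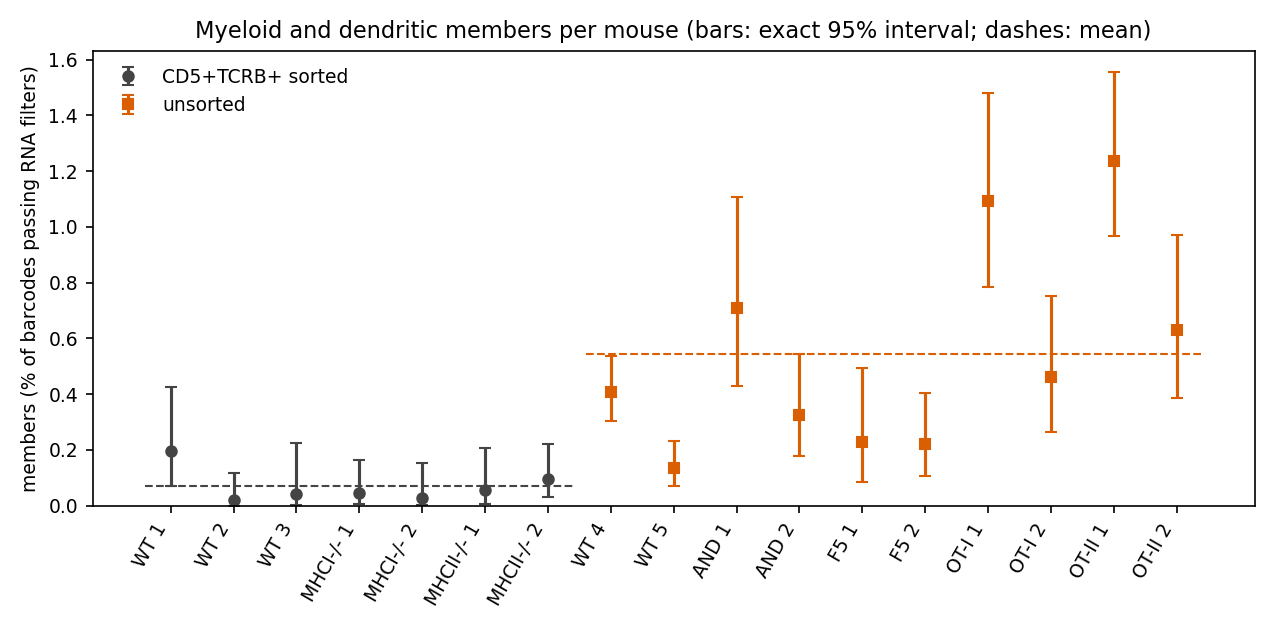
Members as a percent of barcodes passing the RNA filters in each of the 17 mice, with exact 95% intervals that cover counting error and dashed lines at the group means. The 7 sorted mice lie between 0.0211% and 0.195%, and the 10 unsorted mice between 0.135% and 1.24%.

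The share did not separate CD4-fated from CD8-fated mice. It was 0.496% ± 0.461 (SD, n = 6) in CD4-fated mice and 0.359% ± 0.386 (SD, n = 6) in CD8-fated mice, a difference of 0.136 points (exact permutation p = 0.576). Without OT-II 1 the difference was -0.0119 points, and among unsorted mice it was 0.224 points (exact permutation p = 0.4). Leaving out the granulocyte-like and Gzma-Nkg7 members, described next, also brought it to -0.00218 points.

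Clustering of the members' RNA gave 10 classes, which were named only where markers of 1 class led. By size they were macrophage-like (66 cells), granulocyte-like (48), monocyte-like (28), activated DC-like (27), cDC2-like (26), cDC1-like (18), cycling-like (17) and pDC-like (8), with 2 clusters left unnamed: 22 cells led by Cd207 and Cst3, and 20 cells led by Gzma and Nkg7. The names were rebuilt here from marker genes. The genes that lead a class formed it, so their levels are a description with no test. At coarser clustering the 22 Cd207 cells joined the cDC1-like class, and with experiments centred 21 of them did.

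**Figure D2:**
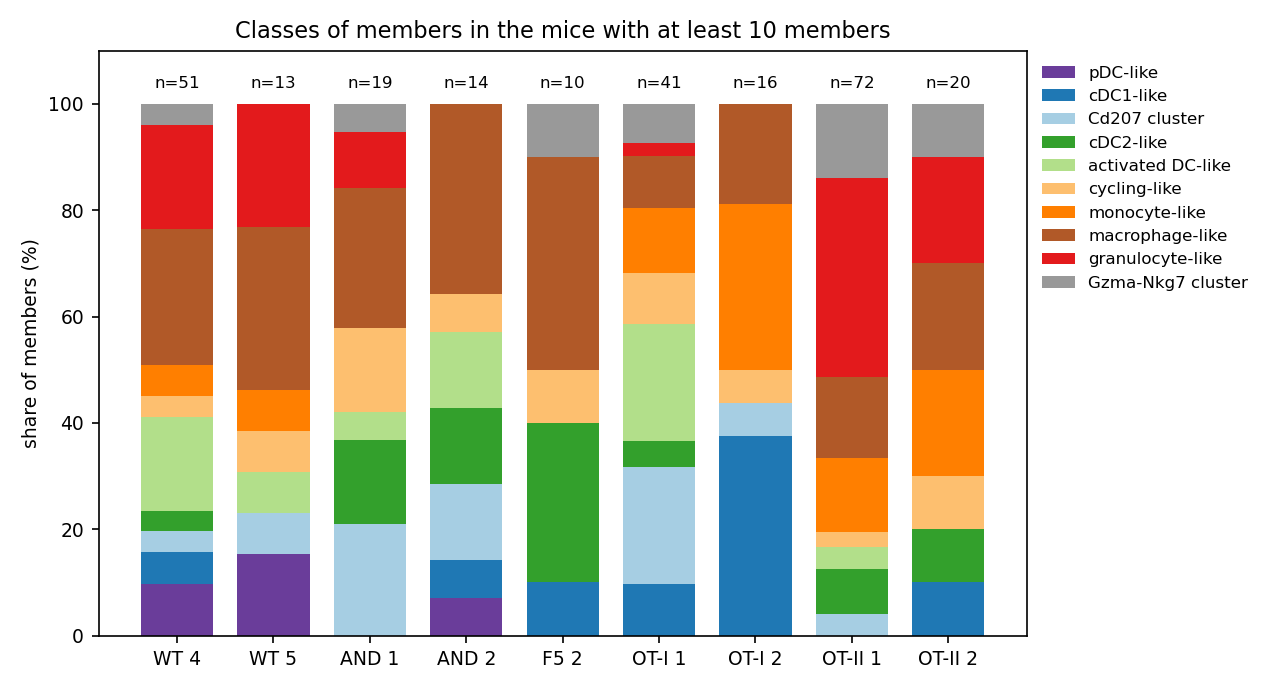
Share of members in each of the 10 classes (stacked bars, percent) for the 9 mice with at least 10 members, with the number of members above each bar. Granulocyte-like cells (red) made up 37.5% of the members of OT-II 1 and none of those of AND 2, F5 2 and OT-I 2.

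Among dendritic cells, the pDC-like cells held 2643 CPM of Siglech, 2659 of Cox6a2, 2032 of Tcf4 and 3606 of Irf8, an interferon regulatory factor that dendritic cell lineages need. They came from WT 4 (5 cells), WT 5 (2) and AND 2 (1). None was found in OT-I and OT-II mice, where a count of 0 allows a share of up to 7.32% in OT-I 1, 18.8% in OT-I 2, 4.17% in OT-II 1 and 15% in OT-II 2. The doublet score called 7 of these 8 cells. Their B cell list stood at 1192 CPM and their plasma cell list at 1039 CPM, against at most 251 and 269 CPM in the other classes. The part of doublets or B lineage RNA in this class was not tested.

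The cDC1-like cells held 819 CPM of Xcr1, 253 of Clec9a and 27632 of Cst3, and the Cd207 cells held 331 CPM of Xcr1, 551 of Cd207 (langerin, 411 in cDC1-like cells) and 30488 of Cst3. Irf8 stood at 2147 CPM in the first and 1244 in the second. The Cd207 cells were shallower, with a median of 3199 RNA UMIs against 10469, and 9 of the 22 came from OT-I 1. Tlr3 and Tlr11, receptors for double-stranded RNA and profilin, peaked in cDC1-like cells at 123 and 71.2 CPM.

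The cDC2-like cells carried the highest MHC class II RNA, with Cd74 at 38874 CPM, H2-Ab1 at 15955 and H2-Aa at 15174, and were led by the lectins Mgl2 (1130 CPM), Cd209d (763 CPM) and Cd209a (548 CPM). In pDC-like cells Cd209d was as high (825 CPM) and Cd209a somewhat lower (489 CPM). The 14 genes of the cDC2 marker list did not peak in this class as a whole. They summed to 6770 CPM in cDC2-like cells, 8907 in monocyte-like cells and 4561 in granulocyte-like cells. Summed over the 13 genes of the MHC class II list, cDC2-like cells stood at 90012 CPM. That was ahead of cDC1-like (58970), Cd207 (58109), cycling-like (53408) and activated DC-like cells (44219). The list fell to 10161 CPM in pDC-like and 8499 CPM in macrophage-like cells, and to 123 CPM in granulocyte-like and 282 CPM in Gzma-Nkg7 cells. The last 2 values lay below the 373 CPM of all other cells, which were nearly all thymocytes.

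The activated DC-like cells were the main source of chemokine RNA, with Ccl5 at 4356 CPM, Ccl22 at 3812 and Ccl17 at 1953, and held 1352 CPM of Ccr7, the receptor that guides cells to the medulla. Their list of NF-kappaB and CD40 response genes summed to 10327 CPM and no other class passed 2005, with Relb at 970 CPM and Traf1 at 1014 CPM. Cd40 (182 CPM), Cd83 (557 CPM) and Cd274 (125 CPM) were also highest there, while Cd86 was highest in cDC1-like cells (360 CPM). B2m and H2-K1 reached 3724 and 3280 CPM. Ccr7 was no marker against thymocytes, as 31.5% of other cells held a UMI of it.

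The cycling-like cells held 1103 CPM of Top2a and 706 of Mki67 and the most RNA per cell (median 18621 UMIs). They also held Xcr1 (263 CPM), Mgl2 and MHC class II RNA, and at coarser clustering 9 of the 17 joined the cDC1-like class.

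Among the other myeloid cells, monocyte-like cells held 19446 CPM of Lyz2, 3101 of Plac8, 1272 of the chemokine receptor Ccr2, 1168 of fibronectin (Fn1) and 638 of Csf1r, the receptor for M-CSF. Interferon-stimulated genes summed to 5923 CPM, the highest of the 10 classes, with Ifi27l2a at 3287 CPM. Of these 28 cells 10 came from OT-II 1, and none from AND or F5 mice.

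Macrophage-like cells were the most widespread, present in 15 of 17 mice, and the shallowest, with a median of 1055 RNA UMIs. They held 19713 CPM of Apoe, 5179 of C1qb, 4773 of C1qa, 4461 of cathepsin B (Ctsb), 2239 of Vcam1 and 813 of Axl, a receptor that binds dying cells. Their complement list summed to 15563 CPM, against 2823 in monocyte-like cells, and the list for uptake of dying cells and lysosomes to 12883 CPM, against 3652 in pDC-like cells. The class joined 2 clusters. In the cluster of 39 cells, Vcam1 (3764 CPM), Slc40a1, the iron exporter ferroportin (1275 CPM), Spic (607 CPM) and Timd4 (435 CPM) led. In the cluster of 27 cells, S100a4 (370 CPM), Isg15 (1149 CPM), Prdx2 (1499 CPM) and Bnip3l (604 CPM) led, with Pla2g2d further down. Spic and Timd4 were at 0 there. Globin and other erythroid RNA made up 13900 of the 115660 RNA UMIs of this class, and 13899 of them were in OT-II 1, where 3 cells held over 100 each. The macrophage-like values of OT-II 1 hold that RNA.

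Granulocyte-like cells held 159774 CPM of S100a9 and 130604 of S100a8, the subunits of calprotectin, and joined cells led by the granule genes Ngp, Camp and Chil3 (23 cells) with cells led by Retnlg and Il1b (25 cells). OT-II 1 gave 27 of the 48. The doublet score called 52.1% of them.

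The Gzma-Nkg7 cells went against the name myeloid. They held 1277 CPM of Gzma, 1015 of Nkg7, 2743 of Trbc2 and 1287 of Trbc1, the last 2 being constant genes of the T cell receptor beta chain, and 282 CPM of the MHC class II list. Cst3 (323 CPM) and Lyz2 (82.0 CPM) were low in them, and the NK or innate lymphoid list summed to 3963 CPM, against at most 321 in the other classes. The thymocyte list was higher still at 7486 CPM, against at most 1816 in the other classes, and the progenitor and cycling lists stood at 2174 and 2430 CPM. Of the 10 genes that led the cluster, 2 were NK markers and 2 thymocyte markers, and it was left unnamed. Tyrobp stood at 1179 CPM, and the rule admits a cell with a single UMI of Cst3 or Lyz2. Without them and the granulocyte-like cells, the comparison of antibodies between members and other cells gave 33 higher and 27 lower calls, close to the counts over all members given next.

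**Figure D3:**
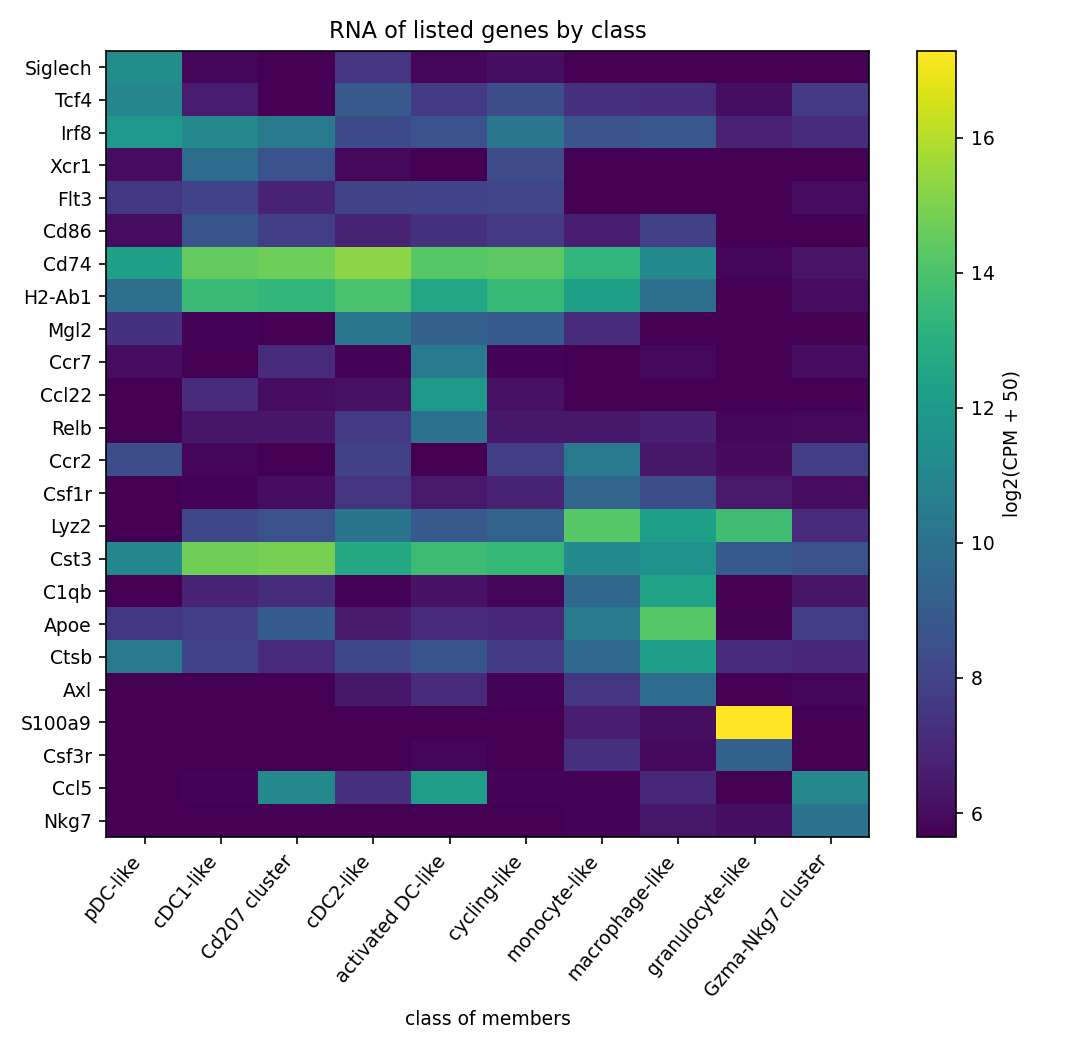
Level of 24 named genes (rows) in the 10 classes of members (columns), as log2 of CPM plus an offset of 50. Siglech, Xcr1, Ccl22, C1qb and S100a9 are each brightest in 1 column, and Cd74 is bright in all dendritic classes and dark in the granulocyte-like and Gzma-Nkg7 columns.

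Most listed myeloid genes stood higher in members, and the rule itself used Tyrobp and Siglech of the Fc receptor and adaptor list. The values here sum the cells of all mice, so they do not show how single mice vary. In these sums, 13 of 13 MHC class II genes, 13 of 13 measured Fc receptor and ITAM adaptor genes and 10 of 10 complement genes stood higher in members than in other cells. So did 21 of 22 transcription factors and 19 of 20 chemokines and cytokines. The median log2 ratios were 3.02, 1.37, 1.36, 1.12 and 0.95, in this order. Over all 16594 genes 35.9% were higher in members and the median log2 ratio was -0.01. Fcer1g, another ITAM adaptor, stood at 1253 CPM, Spi1, which encodes PU.1, at 446 CPM and Irf8 at 748 CPM. In the other direction, 0 of the 18 thymocyte genes were higher, and the list summed to 1558 CPM in members and 19401 CPM in other cells. These ratios describe the cells the rule picked and carry no test.

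The antibody counts are a separate readout, as the rule used RNA alone. The rule did leave out barcodes with a Cd3e or Cd8b1 UMI, which bears on the antibodies to T cell proteins. Of 111 antibodies, 35 (31.5%) were higher and 29 (26.1%) lower in members than in other cells of the same mice at an adjusted p under 0.05 (edgeR quasi-likelihood test, Benjamini-Hochberg over the 111, mouse as a block, 9 mice). Levels are antibody UMIs per 10000 antibody UMIs.

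Among antibodies to dendritic and antigen-presentation proteins, CD11c, an integrin of dendritic cells, ran from 85.7 to 434 in members (median 196) and from 2.51 to 20.3 in other cells (median 4.85), so that the lowest members lay above the highest other cells. Its log2 fold change was 4.76 ± 0.25 (SE, edgeR adjusted p = 2e-08). MHC class II (I-A-I-E) ran from 1289 to 2934 in members (median 1703) and from 29.8 to 135 in other cells (median 104), with a log2 fold change of 4.29 ± 0.35 (edgeR adjusted p = 6e-07). The groups did not overlap in any of the 9 mice for either antibody. The costimulatory ligand CD86 (log2 fold change 2.50 ± 0.21), the adhesion molecule CD54 (3.19 ± 0.23) and SIRPa (2.04 ± 0.25) were higher in all 9 mice. XCR1 (2.36 ± 0.36) was higher in 9 mice and CLEC9A (1.65 ± 0.36) in 8.

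Antibodies to macrophage and monocyte proteins were mixed. Ly-6C ran from 10.8 to 577 in members (median 101) and from 3.37 to 23.4 in other cells (median 8.16). It was higher in 8 of 9 mice, all but F5 2, with a log2 fold change of 3.56 ± 0.70 (edgeR adjusted p = 0.00105). CD115, the receptor for M-CSF (2.60 ± 0.37), F4-80 (2.25 ± 0.24), CD106 (1.97 ± 0.23) and CD38 (2.85 ± 0.25) were higher in all 9 mice. EpCAM (2.73 ± 0.35) was also higher in each mouse, with AND 1 at 435 and the other mice at 22.7 to 93.4. CD14 (1.56), Tim-4 (1.43), CX3CR1 (1.35), CD36 (0.84), CD64 (0.81) and MERTK (0.61) were also called higher. CD206 (-0.08), CD68 (-0.11), folate receptor beta (-0.14), CD169 (-0.14), CD204 (-0.18) and CCR2 (-0.32) did not pass. The Siglec-H antibody had a log2 fold change of 0.61 ± 0.32 and did not pass (edgeR adjusted p = 0.114).

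Antibodies to thymocyte proteins were among those that fell most. The rule asked for 0 UMIs of Cd3e and of Cd8b1, the gene of CD8b, so these falls are in part set by the rule. CD5 ran from 78.5 to 171 in members (median 115) and from 608 to 1605 in other cells (median 1201), and CD90.2 from 53.7 to 211 against 247 to 1682, with no overlap for either. Their log2 fold changes were -3.43 ± 0.26 and -3.11 ± 0.23. CD8b (-3.47 ± 0.37), CD4 (-2.52 ± 0.25), CD150 (-2.75 ± 0.24) and TCR beta (-2.08 ± 0.29) were lower in all 9 mice, and CD8a (-1.63 ± 0.49) in 7. CD28 (-1.39) and ICOS (-1.32) were each lower in 8 of 9 mice. Of the 64 calls, 34 held in all 14 alternatives. Among them was every called antibody named here with a fold, except CD14 (called in 13), CD36 (12), CD64 (11), MERTK (11) and CX3CR1 (10). Without the scaling factors that balance composition (TMM) the median log2 fold change over all antibodies moved from -0.08 to 0.16 and the calls split into 41 higher and 17 lower. Without OT-I 1 the calls were 23 higher and 48 lower, without OT-I 2 they were 24 and 47, and without OT-II 1 they were 24 and 44.

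**Figure D4:**
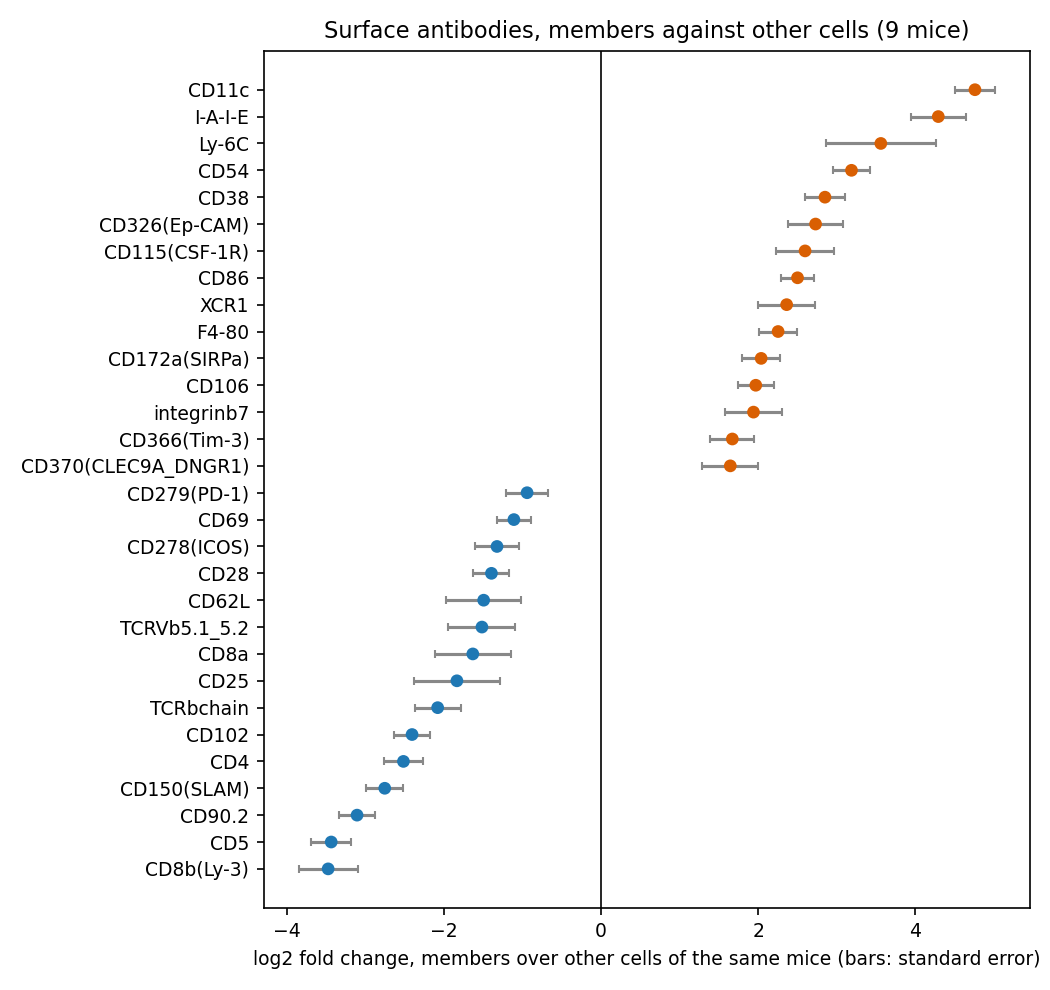
Log2 fold change of the 15 antibodies that rose most and the 15 that fell most among those called, members over other cells of the same 9 mice, with bars of 1 standard error from edgeR. CD11c (4.76) and I-A-I-E (4.29) lead the rise, and CD8b (-3.47) and CD5 (-3.43) lead the fall. The rule left out barcodes with a Cd8b1 UMI, so the fall of CD8b is in part set by it.

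Classes set by RNA were then compared by antibody, each class against the remaining members with the mouse as a block (edgeR quasi-likelihood test, Benjamini-Hochberg over the 111 antibodies). With at least 10 cells on both sides of a mouse, only the granulocyte-like class and the macrophage-like class could be tested. For the granulocyte-like class 40 antibodies (36%) differed (2 mice, 15 higher and 25 lower, or 21 and 23 without TMM), and 11 did under the protein filters. For the macrophage-like class edgeR called 0 antibodies, with 26 at an unadjusted p under 0.05, and 13 without TMM. All further tests used at least 3 cells, a limit chosen after the cell numbers were seen. They rest on 2 to 10 mice, and the split between higher and lower calls is given with and without TMM.

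In cDC1-like cells 17 antibodies (15.3%) differed (3 mice, 9 higher and 8 lower, or 10 and 34 without TMM). XCR1 stood at 181 to 195 and at 13.2 to 50.9 in the remaining members of the same mice, with a log2 fold change of 3.27 ± 0.68 (edgeR adjusted p = 0.00176), CLEC9A at 34.8 to 63.8 (2.54 ± 0.54) and CD103 at 102 to 153 (2.28 ± 0.56). Tim-3 and Sca-1 were also higher, and Ly-6C and CD14 lower. No antibody was called without OT-I 1 or under the protein filters of the study (1000 to 10000 antibody UMIs and at least 70 antibodies detected). In the Cd207 cells 0 antibodies passed in edgeR, with 26 at an unadjusted p under 0.05, 3 lower without TMM and 6 without AND 1. Their summed XCR1 level of 154 lay close to the 178 of cDC1-like cells, far above the 4.67 to 58.8 of the remaining classes, and CD103 stood at 149 and 143.

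In cDC2-like cells 9 antibodies (8.11%) differed (5 mice, 2 higher and 7 lower, or 2 and 10 without TMM). MGL1 (CD301a) stood at 55.7 to 204 and MGL2 (CD301b) at 81.9 to 249.8, with log2 fold changes of 3.71 ± 0.50 and 2.99 ± 0.60, while CD38 (-4.05 ± 0.66), XCR1 (-2.10 ± 0.41) and CD106 (-3.26 ± 0.61) were lower. SIRPa was not called in this class, with a summed level of 169 against 111 in monocyte-like cells. The number of calls was 15 without F5 1, 14 without OT-II 1, 3 without called doublets and 0 under the protein filters. In activated DC-like cells 13 antibodies (11.7%) differed (3 mice, 6 higher and 7 lower, or 3 and 23 without TMM). MHC class II stood at 4912 to 5795 per 10000, with a log2 fold change of 2.65 ± 0.40 (edgeR adjusted p = 0.00984). CD86 (2.54 ± 0.50), CD200 (2.25 ± 0.55) and PD-L1 (1.90 ± 0.49) were higher and Ly-6C (-5.45 ± 0.68) lower. The number was 26 without WT 4, 8 without OT-I 1, 0 without OT-II 1 and 4 under the protein filters. Of the 7 alternatives that changed the fit, Ly-6C was called in 6, CD86 in 5, MHC class II and CD200 in 4 each and PD-L1 in 1. The MHC class II protein of this class was the highest of all, whereas its H2-Ab1 RNA, at 6303 CPM, lay below that of cDC2-like cells at 15955.

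In monocyte-like cells 22 antibodies (19.8%) differed (5 mice, 8 higher and 14 lower, or 9 and 19 without TMM), with 14 called without OT-I 1 and 15 without called doublets. Ly-6C stood at 284 to 2088 and at 4.03 to 284 in the remaining members, higher in each of the 5 mice, with a log2 fold change of 4.97 ± 0.73 (edgeR adjusted p = 0.00132). The fractalkine receptor CX3CR1 (3.49 ± 0.41), CD115 (3.23 ± 0.64) and the scavenger receptor CD36 (3.07 ± 0.37) were higher, and XCR1 (-3.45 ± 0.45) and MHC class II (-2.18 ± 0.36) lower. SIRPa was also among these calls, and in 4 of the 10 alternatives that changed the fit. In macrophage-like cells 44 antibodies (39.6%) differed (10 mice, 20 higher and 24 lower, or 48 and 13 without TMM). CD106, the product of Vcam1, stood at 142 to 683 and at 8.18 to 37.9 in the remaining members of the same mice, with a log2 fold change of 3.22 ± 0.41 (edgeR adjusted p = 2.61e-05). CD38 (2.95 ± 0.38), Tim-4 (2.66 ± 0.38), F4-80 (2.47 ± 0.30) and MERTK (1.98 ± 0.29) were higher, and CD11c (-2.88 ± 0.48) and MHC class II (-2.07 ± 0.47) lower. CD115 (-1.62 ± 0.58) and CD14 (-0.91 ± 0.31), also carried by macrophages and monocytes, were lower too. The 20 higher ones also included CD4 (1.24), CD137 (0.98), NKp46 (0.97), CD20 (0.71), TCR Vr3 (0.63), IgD (0.62) and IgM (0.59), proteins of other lineages in the main, each higher in 10 of 10 mice. The cells had a median of 1116 antibody UMIs, and the part of unspecific antibody was not tested. The number of calls was 18 under the protein filters and 23 with at least 3 Tyrobp UMIs, and of the 15 alternatives that changed the fit, CD106, CD38, Tim-4, F4-80 and MERTK were called in 15 and CD115 in 6.

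In granulocyte-like cells 33 antibodies (29.7%) differed (4 mice, 10 higher and 23 lower, or 19 and 23 without TMM), and 55 without WT 5. CD62L stood at 991 to 1332 and at 29.7 to 65.7 in the remaining members, with a log2 fold change of 4.50 ± 0.34 (edgeR adjusted p = 0.0002). CD55 (4.28 ± 0.58), CD73 (2.67 ± 0.49) and CD43 (2.39 ± 0.33) were higher, and MHC class II (-5.55 ± 0.43) and CD11c (-4.64 ± 0.42) lower. In Gzma-Nkg7 cells 5 antibodies (4.5%) differed (2 mice, 3 higher and 2 lower, or 0 and 1 without TMM), with 1 called without called doublets and 0 under the protein filters or with at least 3 Tyrobp UMIs. NK-1.1, a receptor of NK cells, stood at 61.8 and 63.9 (4.44 ± 1.19, edgeR adjusted p = 0.0108) and B220 was higher (4.05 ± 1.17), while MHC class II was lower (-4.76 ± 0.55). For cycling-like cells edgeR called 0 antibodies, with 6 at an unadjusted p under 0.05. The pDC-like cells were too few for a test. Their summed levels were 247 for Siglec-H, against at most 19.9 in any other class, 184 for B220 and 1160 for Ly-6C.

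**Figure D5:**
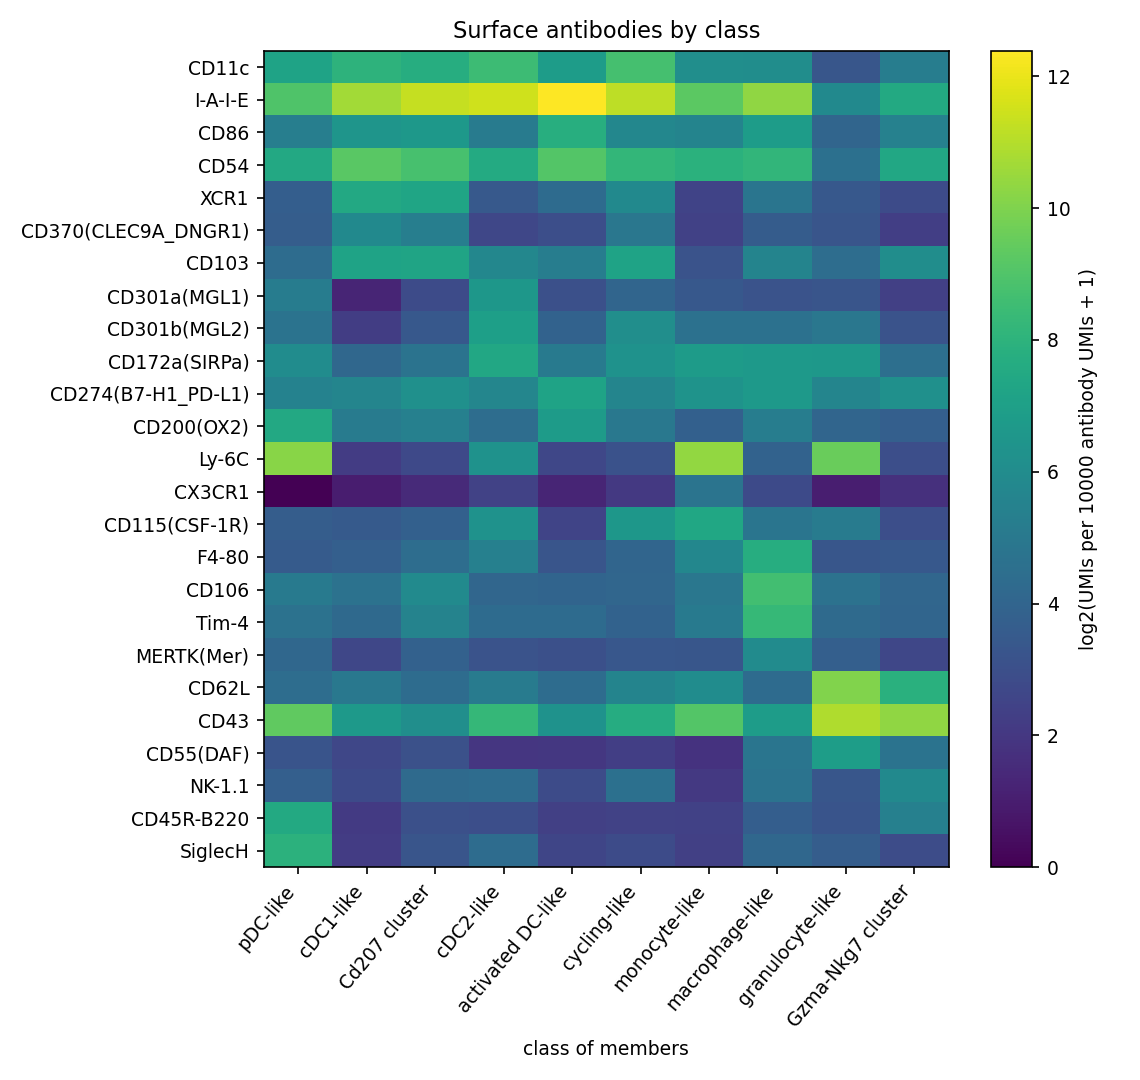
Summed level of 25 antibodies (rows) in the 10 classes of members (columns), as log2 of UMIs per 10000 antibody UMIs plus 1. I-A-I-E is brightest in activated DC-like cells (5366), Ly-6C in monocyte-like (1335) and pDC-like (1160) cells, CD106 in macrophage-like cells (398) and CD62L in granulocyte-like cells (1038).

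For 35 gene and antibody pairs on the lists, the class with the highest RNA was also the class with the highest antibody level in 22, and was among the first 3 of 10 classes in 30. Siglech, Xcr1, Clec9a, Mgl2, Csf1r, Cx3cr1, Vcam1, Timd4 and Mertk were among those 22. CCR7 and CCR2 were not, since both antibodies read highest in macrophage-like cells (21.6 for CCR7) while their RNA was highest in activated DC-like and monocyte-like cells. The part of unspecific antibody in these low levels was not tested.

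The members of sorted mice were compared by genotype. The 7 members of MHCII-/- mice were all macrophage-like and held 1 UMI of H2-Ab1 and 0 of H2-Aa among 10899 RNA UMIs, and 4 I-A-I-E UMIs among 5254 antibody UMIs. Macrophage-like members of unsorted mice had a median of 74.5 I-A-I-E UMIs per cell (0 to 1943, 56 cells), against 1 (0 to 1) in these 7. The RNA gave no check of the genotype, since the 2 macrophage-like members of sorted wild-type mice also held 0 UMIs of H2-Ab1, H2-Aa and Cd74, while their I-A-I-E counts were 35 and 9. The 3 members of MHCI-/- mice held 1 B2m UMI among 10131, and the 8 of sorted wild-type mice 15 among 8007. Rag1 was at most 187 CPM in members of any mouse and could not serve as a check there.

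The sort selected CD5 and TCR beta. Members of sorted mice did not carry more of either antibody than those of unsorted mice beyond their spread. For the sort, the paper bound fluorescent oligonucleotides to the tags of both antibodies, so their counts may not compare directly with unsorted mice. The rule also asked for 0 UMIs of Cd3e in all mice. The part of either in these values was not tested. TCR beta stood at 12.6 ± 16.9 per 10000 (SD, n = 7) against 24.0 ± 10.5 (n = 10, exact permutation p = 0.107, adjusted over 3 tests 0.322) and CD5 at 148 ± 154 against 120 ± 26.6 (exact permutation p = 0.835). The thymocyte RNA list stood at 1807 ± 1636 CPM against 1254 ± 606 (exact permutation p = 0.405). Sorted mice had 1 to 6 members each, so these used mice with at least 1 member, a limit chosen after the cell numbers were seen. Without WT 1 the TCR beta difference passed, with lower values in sorted mice (-17.6 per 10000, exact permutation, adjusted p = 0.00599), and the CD5 difference turned from 28.1 to -29.1, and without MHCI-/- 1 the RNA difference turned from 553 to -35.5 CPM.

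Members were last compared between CD4-fated and CD8-fated mice, which asks whether the cells that present antigen differed where the selected lineage did. Only unsorted mice had 10 members, so AND 1, AND 2, OT-II 1 and OT-II 2 (CD4-fated) stood against F5 2, OT-I 1 and OT-I 2 (CD8-fated), with the genotype family as a covariate. In RNA, 0 of 1913 genes tested passed (0%) in edgeR, and 111 (5.8%) had an unadjusted p under 0.05. DESeq2 called 5 of 4481 (Trac, Hba-a1, Retnla, Msrb1 and Anxa1). Hba-a1 and Retnla had log2 fold changes of 19.3 and -23.9. The erythroid list, which holds Hba-a1, stood at 23703 CPM in OT-II 1 and at most 26.1 in any other mouse with at least 10 members. The smallest adjusted p was that of Trac, the constant gene of the T cell receptor alpha chain, at 0.226 (edgeR). Trac stood at 123 and 238 CPM in AND mice and 1552 and 592 in OT-II mice, against 25.4, 43.4 and 33.9 in the CD8-fated mice, so that the groups did not overlap, and at 22.5 and 23.3 CPM in the unsorted wild-type mice. In other cells it averaged 1737 CPM. The thymocyte list, which holds Trac, had 4 genes tested, 2 with positive fold changes. The TCR beta antibody was not among the calls.

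No gene of any list passed in edgeR. DESeq2 called Trac, of the thymocyte list, and Hba-a1, of the erythroid list. Of 13 MHC class II genes, 0 passed, 7 had an unadjusted p under 0.05 and 12 had lower values in CD4-fated members, with a median log2 fold change of -0.71 against 0.01 over all genes tested. Cd74 stood at 16629, 24402, 7789 and 8546 CPM in the CD4-fated mice and 31608, 18804 and 11171 in the CD8-fated mice, with overlap. Granulocyte-like cells, with 123 CPM of the 13 genes summed, made up 10.5%, 0%, 37.5% and 20% of members in the CD4-fated mice. In the CD8-fated mice they made up 0%, 2.44% and 0%, and the part of class mix in the class II values was not tested. Of the 14 granulocyte genes, 9 had enough counts to be tested and 0 passed. Their direction carries no weight, since they entered the test through CD4-fated mice and lay at or near 0 in the CD8-fated ones. S100a9 was at 49485, 0, 64796 and 17466 CPM in AND 1, AND 2, OT-II 1 and OT-II 2 and at 0, 74.5 and 0 in F5 2, OT-I 1 and OT-I 2. Of 9 macrophage genes all 9 and of 8 interferon-stimulated genes all 8 had positive fold changes, with medians of 0.34 and 0.61 and 0 and 1 at an unadjusted p under 0.05. The protein filters gave 22 calls of 1061 genes tested, 8 of them on the granulocyte list. Leaving out AND 2 gave 25 calls of 1729, 9 of them on the granulocyte list, and leaving out OT-II 2 gave 1, Trac. The sets of 22 and 25 also held Lcn2, Slpi, Chil3, Pglyrp1, Hp, Mmp8 and Wfdc21. These are not on the list but were among the leading genes of the granulocyte-like class. Trac was in both sets too.

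In antibodies 2 of 111 (1.8%) passed. Ly-6C was higher in CD4-fated members (68.2, 36.9, 577 and 490 per 10000 against 10.8, 43.1 and 116, log2 fold change 2.30 ± 0.64, edgeR adjusted p = 0.0359), with values that overlap. CD8a was lower (115, 211, 59.5 and 43.1 against 238, 284 and 450, log2 fold change -2.42 ± 0.67, edgeR adjusted p = 0.0359), with values that do not overlap. In other cells of the same mice CD8a stood at 141, 190, 468 and 345 against 649, 364 and 308. Among the classes, CD8a was highest in Cd207 (358) and cDC1-like cells (331) and low in granulocyte-like cells (21.7). Ly-6C was highest in monocyte-like (1335), pDC-like (1160) and granulocyte-like cells (755), and at most 79.2 in the other classes. The part of class mix in either difference was not tested. Both calls were lost without the family covariate and without OT-I 1, OT-I 2 or OT-II 1, where 0 antibodies passed. They were also lost when same-numbered mice of a family were paired as a replicate block (6 mice, 0 called, CD8a -2.48 and Ly-6C 2.06). CD8a was also lost in mice with at least 5 members and without AND 2 or OT-II 2 and Ly-6C without AND 1 or F5 2, so that each call rests on most of the 7 mice (CD8a -3.20 to -1.87 and Ly-6C 2.01 to 2.72 without 1 mouse). Without called doublets CD8a kept its call and Ly-6C did not.

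The share of each class among members was also compared between the lineages, though this design could hardly pass the threshold. With 35 splits the exact permutation p cannot fall below 0.0286, or below 0.286 for a single class once adjusted over the 10 classes. The smallest adjusted p was 0.857 (exact permutation), which says nothing of whether the shares are alike. The 2 largest differences were those of granulocyte-like cells, at 10.5%, 0%, 37.5% and 20% in CD4-fated mice against 0%, 2.44% and 0% in CD8-fated mice (exact permutation p = 0.171), and of cDC1-like cells, at 0%, 7.14%, 0% and 10% against 10%, 9.76% and 37.5% (exact permutation p = 0.0857). With 10 to 72 members per mouse, a count of 0 allows a share of up to 4.17% in OT-II 1 and up to 30% in F5 2. No class had 10 cells in 3 mice of each lineage, the limit set for an RNA test within a class, so none was made. At the limit of 3 cells used for the antibodies it was not run.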

How the data were processed

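Per the labels, single thymocyte suspensions were stained with TotalSeq-A antibodies and run on 10x Chromium 3' v3, 1 sample per lane. The deposited files are filtered matrices of UMI counts for RNA and antibodies, which the authors made with Cell Ranger 3.1.0 on the mouse genome (mm10, GRCm38). They were used as deposited, 9893333 to 43303999 RNA UMIs per lane. The intervals cover counting error.

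Members and gene lists were chosen with earlier results of these data known, and the clustering settings were set after the data were seen. Members were clustered on RNA (1000 variable genes, 15 components, 8 neighbours, Leiden resolution 1), with mitochondrial, ribosomal, receptor, MHC, Xist and globin genes left out. Doublets were called per lane from simulated-doublet scores, at 0.8% per 1000 barcodes, and kept. Counts were summed per mouse and tested with edgeR 4.0.16 (quasi-likelihood, TMM) or by exact permutation over mice, two-sided. DESeq2 1.42.0 was an alternative. Mouse litters are not stated, so p-values measure the spread between these mice. Named genes were those of the rule and genotypes, up to 4 of the highest of each list, and all calls. Other listed genes and leading genes of classes were named after their values were seen. Antibodies were the 15 largest changes each way and those to products of listed genes, and in classes the named ones were picked among the calls. In simulated counts for the RNA test by lineage (1955 genes), edgeR recovered 17 of 72 genes changed by log2 1 and 75 of 85 changed by log2 2. Barcodes found in over 1 lane numbered 874 of 78660. Same-numbered AND and F5 mice shared an experiment per the labels, and only the second pair had enough members for the fits. OT-I and OT-II mice were all of experiment 3. Deviations of same-numbered mice correlated at 0.40 (RNA) and 0.16 (antibodies) for OT-I with OT-II and at -0.043 (antibodies) for AND with F5.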

Additional observations from a re-analysis of the deposited data

Results flagged for a closer look

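In 74 groups of 4 to 10 mice tested for a value far from the rest, 16 were marked, each at the high end. Chance marks about 1 in 20 such groups if values are normally distributed. That was not checked for these levels and shares, so the number of marks is not read against it. Among sorted mice, WT 1 had the highest share of members (0.195%, 6 cells, next 0.0955%). OT-I 2 had the highest cDC1-like share (37.5% of 16 members, next 10%). In members, Siglech was highest in WT 5 (1074 CPM, next 282), Lyz2 in OT-II 1 (10430 CPM, next 5160) and erythroid RNA in OT-II 1 (23703 CPM, next 26.1). Among antibodies per 10000, EpCAM stood out in AND 1 (435, next 93.4), CD102 in OT-II 1 (127, next 72.9) and Tim-4 in F5 2 (79.0, next 50.2). AND 2 was the highest mouse for PD-1 (64.1), MERTK (31.8), CD206 (32.9), CD83 (4.04), CD135 (37.5), CCR2 (35.8), CCR7 (36.9) and CD169 (67.5). Its 14 members had a median of 619 antibody UMIs, the lowest of the 9 mice, and its other cells also read high for several of these. The part of this depth in those values was not tested.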

How the results depend on the processing

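Of 875 alternatives to single values, 787 kept direction and side of the threshold. Of 246 alternatives to counts of calls, 193 lay within 1.5 times the reported count, and 129 gave that count itself, many because the setting touched no cell or mouse of the fit. The cause of the other changes was not tested. Alternatives at 3 cells per class, 5 members per mouse, unsorted mice only and without granulocyte-like and Gzma-Nkg7 members were chosen after seeing the data. The share by sort kept its call (-0.521 to -0.399 points without 1 mouse), at -0.825 points with no exclusion by Cd79a, Cd3e and Cd8b1. The share by lineage ran from -0.0119 to 0.283 without 1 mouse and was -0.00218 without granulocyte-like and Gzma-Nkg7 members.

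Antibodies lower in members numbered 19 without called doublets and 17 without TMM, and 22 to 48 without 1 mouse, where those higher numbered 23 to 35. CD206 turned to 0.0024 without doublets and 0.15 without TMM, CD68 to 0.15, CD204 to 0.12 and CD169 to 0.085 without TMM, and under the study's protein filters CD135 turned to -0.067 and CD204 to 0.033. Of these, CD135 alone was past the threshold over all members.

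Class calls under the protein filters were 0 for cDC1-like, cDC2-like and Gzma-Nkg7, 4 for activated DC-like, 18 for macrophage-like and, at 10 cells, 11 for granulocyte-like. Without doublets cDC2-like had 3 and Gzma-Nkg7 1. At 3 Tyrobp UMIs the counts were 24 for activated DC-like, 23 for macrophage-like, 54 for granulocyte-like and 0 for Gzma-Nkg7. Without TMM they were 44 for cDC1-like, 26 for activated DC-like, 3 for Cd207, 1 for Gzma-Nkg7 and, at 10 cells, 13 for macrophage-like. At resolution 0.6 cDC1-like had 26 and cDC2-like 16. Without 1 mouse the ranges were 0 to 17 for cDC1-like, 0 to 6 for Cd207, 6 to 15 for cDC2-like, 0 to 26 for activated DC-like, 14 to 22 for monocyte-like, 35 to 45 for macrophage-like and 29 to 55 for granulocyte-like.

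RNA calls by lineage numbered 22 under the protein filters, 2 at 3 Tyrobp UMIs, 5 in DESeq2, 125 with no filter on low counts, 103 in mice with at least 20 members (2 CD4-fated mice and OT-I 1 alone, so that 1 mouse cannot be told apart from its lineage), and 0 to 25 without 1 mouse. Antibody calls by lineage were 7 under the protein filters, 7 without doublets, 4 without TMM, 0 without the family covariate, 1 with at least 5 members (Ly-6C) and 0 to 2 without 1 mouse.

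With a replicate block in place of the family (6 mice), 0 genes and 0 antibodies were called.

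TCR beta by sort ranged from -17.6 to -9.28 per 10000 without 1 mouse, CD5 from -29.1 to 44.7 and thymocyte RNA from -35.5 to 738 CPM.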
